A study of Mus musculus with 12 samples.

Results

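Transcripts of 10 genes of Wnt signalling were followed in mural granulosa cells (MGCs), which line the follicle wall, and in cumulus cells, which surround the oocyte. The group holds the ligands Wnt10b, Wnt4 and Wnt5a, the receptors Fzd1, Fzd4 and Lgr5, the secreted inhibitors Sfrp1, Sfrp2 and Sfrp4, and the feedback gene Axin2. Wnt10b and Sfrp4 were picked because they were lower in MGCs of Sphk1/2gc−/− mice, so their MGC values are given as a description with no test. The other 8 were added by name. All 10 symbols were found in both tables, which hold 29101 genes for MGCs and 33137 for cumulus cells.

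RNA was sequenced from MGCs and cumulus cells collected at 2 h post-hCG, an injection that replaces the ovulatory surge of luteinizing hormone, with 3 libraries for each cell type and genotype and 12 in all. The groups were WT, given as purchased C57/BL6 mice in the study's methods, and Sphk1/2gc−/−, that is Sphk1−/−; Sphk2 fl/fl; Fshr-Cre. In these animals Sphk1, which makes sphingosine 1-phosphate together with Sphk2, is null in every cell, whereas Sphk2 is deleted by a Cre under the control of the Fshr promoter, which is active in granulosa cells. The methods describe immature females primed with eCG before hCG, and nothing used here states that the WT mice carried Cre or the floxed allele, or that libraries came from separate animals. P-values therefore measure only the spread between these libraries, which may be technical.

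Wnt proteins are secreted, lipid-carrying ligands that bind a Frizzled receptor together with the co-receptor Lrp5 or Lrp6, which spares β-catenin from destruction and lets it act with TCF/LEF factors on target genes. Axin2 is such a target and also feeds back as a brake, and Lgr5 binds R-spondins, which keep the ubiquitin ligases Znrf3 and Rnf43 from removing Frizzleds. Secreted frizzled-related proteins (Sfrp) bind Wnts or Frizzleds outside the cell. In the ovary, Wnt4 is best known for its part in female gonad development, and Sfrp4 and Fzd4 are known in granulosa cells and the corpus luteum.

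Promoter sequence was at hand for 6 of the 10 members (Wnt10b, Wnt4, Sfrp2, Fzd1, Fzd4 and Axin2), as RefSeq windows of 250 bases before to 50 bases after the transcription start in GRCm38.p6. The windows of Wnt10b, the ligand that differed most between the genotypes of MGCs, and of Axin2, the usual read-out of β-catenin activity, are shown. Wnt10b lies at chr15:98778101-98778400 on the minus strand and Axin2 at chr11:108920099-108920398 on the plus strand. Capitals mark the core of the cAMP response element, TGACG on either strand.
Wnt10b promoter: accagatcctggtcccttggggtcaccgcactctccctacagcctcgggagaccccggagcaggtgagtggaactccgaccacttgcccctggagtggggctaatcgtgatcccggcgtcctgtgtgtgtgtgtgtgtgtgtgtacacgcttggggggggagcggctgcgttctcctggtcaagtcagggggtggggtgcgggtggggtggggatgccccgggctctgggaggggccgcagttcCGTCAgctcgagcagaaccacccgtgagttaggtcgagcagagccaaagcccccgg
Axin2 promoter: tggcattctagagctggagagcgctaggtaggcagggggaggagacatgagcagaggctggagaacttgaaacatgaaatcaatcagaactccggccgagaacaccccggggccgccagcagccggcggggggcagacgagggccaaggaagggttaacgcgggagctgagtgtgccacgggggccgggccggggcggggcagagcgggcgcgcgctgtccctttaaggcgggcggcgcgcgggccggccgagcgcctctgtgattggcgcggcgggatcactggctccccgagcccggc
The letters TGACG or their complement stood once, in the Wnt10b window, beginning 6 bases before the start, and 20.8% of all 32851 windows held them. The TCF/LEF core was searched on both strands as CTTTGAT or as CTTTGAA, and also in the forms CTTTGTT or else CTTTGTA. These letters were in 0 of the 6 windows, against 16.9% of all windows. AAGGTCA, the core bound by NR5A receptors, was in 0 of the 6 as well, against 4.72% of all windows. A match is a string of letters and no proof of binding, and its absence from these 300 bases says nothing of the factor.

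The labels were first checked. Sphk1 was at 1.68, 1.88 and 0.460 FPKM (fragments per kilobase of exon, scaled to library size) in the WT MGCs against 0.432, 0.557 and 0.104 in those of Sphk1/2gc−/− mice, so that the genotypes overlapped by 1 library. In cumulus cells it was at 0.0911, 0.0699 and 0.0954 FPKM in WT and at 0.0778, 0.456 and 0.557 in the libraries labelled Sphk1/2gc−/−. There 2 of the 3 lay above every WT library, which goes against the label of a null gene, so cumulus libraries are named by their label and each direction in them rests on it. Sphk2 did not separate the genotypes in either cell type. These values cover whole genes and so include any exons that the deletion leaves in place. Exons of Sphk1 also overlap those of Gm29292, and exons of Sphk2 those of Dbp and Rpl18. Reads of these genes cannot be told apart there. Libraries of MGCs had 209.6 to 565 FPKM of the luteinizing hormone receptor Lhcgr, a gene of mural cells, against 1.93 to 18.7 in cumulus cells. Amh, which is usually higher in cumulus cells, was at 87.3 to 226 FPKM in MGCs and at 0.102 to 2.16 in cumulus cells, which goes against that label. The oocyte markers Zp1, Gdf9 and 8 more summed to 32.4 to 137.6 FPKM in MGCs and to 2.41 to 8.17 in cumulus cells, although cumulus cells surround the oocyte. Markers of cumulus expansion were also higher in WT MGCs, with sums of 1100 to 1412 FPKM against 311 to 704 in WT cumulus cells. In Sphk1/2gc−/− these sums overlapped, at 202 to 2205 FPKM in MGCs and 1079 to 1335 in cumulus cells. Sphk1/2gc−/− MGC library 3 stood apart, with correlations of 0.912 to 0.939 to the other MGC libraries across 15279 genes of log2(FPKM + 1), and the log2 fold changes of members in MGCs are also given without it. Among the cumulus libraries, WT library 3 had 27541 genes above 0 FPKM, against 18788 to 19289 in the others. Its correlations to the other cumulus libraries were 0.941 to 0.983 across 12205 genes, within the range of those libraries. Reads recovered from the values came to 16100359 to 19761601 per library.

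Wnt10b (chromosome 15, 98770712 to 98778150, GRCm38), a ligand of β-catenin signalling, was nearly absent from Sphk1/2gc−/− MGCs. It was at 4.49, 3.01 and 4.65 FPKM in the WT libraries and at 0.126, 0.126 and 0.0474 in the Sphk1/2gc−/− libraries, or 173, 118 and 183 reads against 5, 5 and 2. Every Sphk1/2gc−/− library lay far below every WT library, and the mean was 4.05 ± 0.903 in WT and 0.10 ± 0.0456 FPKM in Sphk1/2gc−/− (SD, n = 3), which is 2.47% of WT. On the log2(FPKM + 1) scale the difference was −2.18 (SE 0.188), or −2.15 without Sphk1/2gc−/− library 3, and that scale understates folds of transcripts at low levels. In bulk RNA, fewer cells that make a transcript and less of it per cell cannot be told apart. In cumulus cells Wnt10b had 2 reads in WT library 1 and 0 in the other 5 libraries, where a count of 0 allows up to 3 reads, or 0.0650 to 0.0798 FPKM. No genotype difference could be seen at this depth in cumulus cells.

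**Figure D1:**
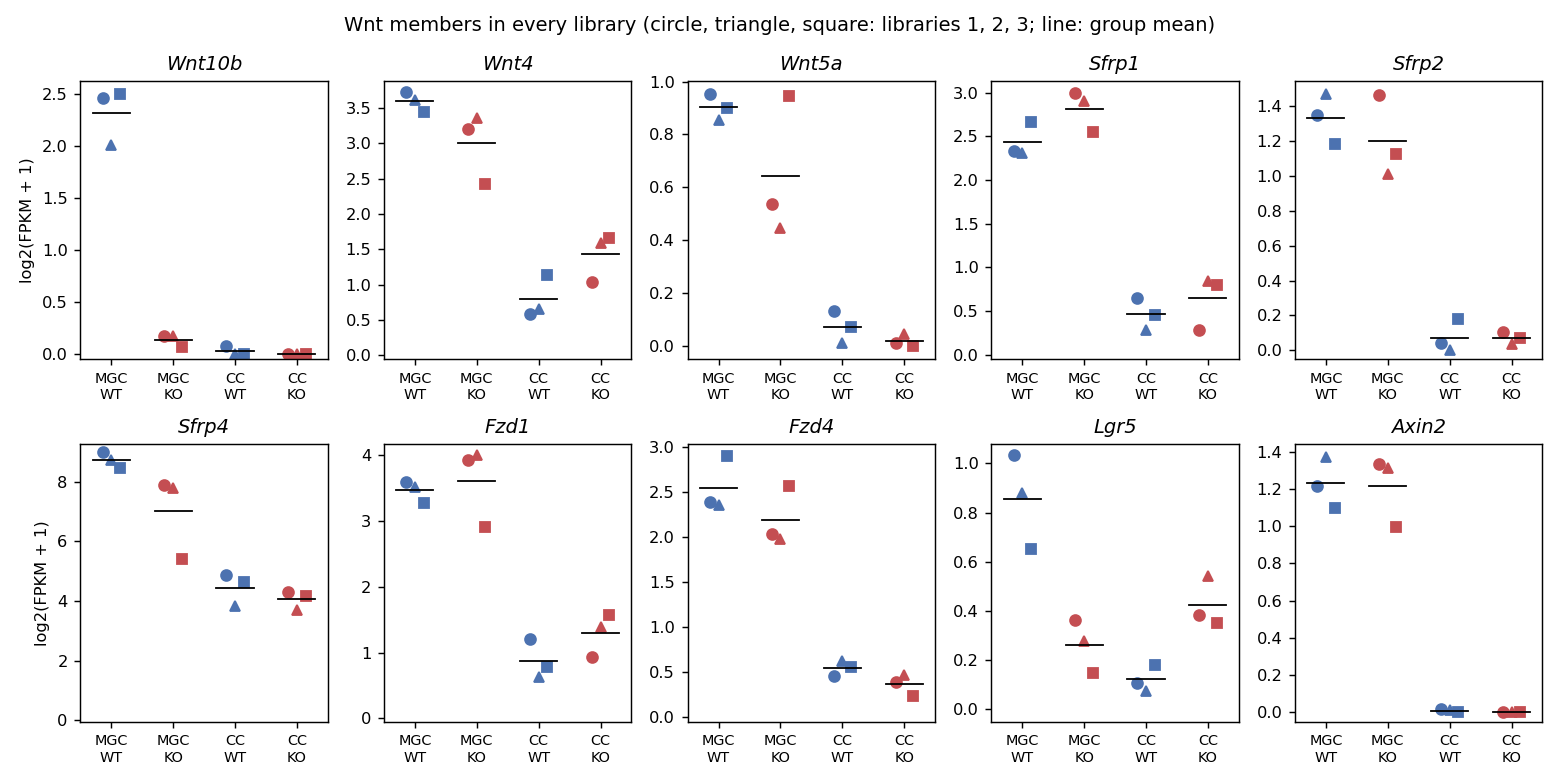
Level of each member in every library as log2(FPKM + 1), in MGCs and cumulus cells (CC) of WT (blue) and Sphk1/2gc−/− (KO, red) mice, with a line at the mean of 3 libraries and a vertical scale of its own in each panel. Wnt10b is near 0 in KO MGCs and in both cumulus groups, and Lgr5 is lower in all 3 KO libraries of MGCs but higher in all 3 KO libraries of cumulus cells.

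Wnt4 (chromosome 4, 137277489 to 137299726), which was the ligand with the highest mean level over the 6 libraries of each cell type, had fold changes of opposite sign that did not pass the test over all libraries. In MGCs it was at 12.2, 11.2 and 9.87 FPKM in WT and at 8.21, 9.29 and 4.38 in Sphk1/2gc−/−. The genotypes did not overlap, but the difference did not pass the test (log2 fold change −0.59, SE 0.257, limma adjusted p = 0.551), and library 3 was the lowest of its group in both genotypes. Without Sphk1/2gc−/− library 3 the log2 fold change was −0.31 (SE 0.120, limma adjusted p = 0.230). In cumulus cells Wnt4 was at 0.504, 0.570 and 1.21 FPKM in WT and at 1.05, 2.00 and 2.18 in the libraries labelled Sphk1/2gc−/−, with WT library 3 above Sphk1/2gc−/− library 1. That log2 fold change was 0.64 (SE 0.222, limma adjusted p = 0.0733). It came under the threshold without WT library 3 (limma adjusted p = 0.0482) or without Sphk1/2gc−/− library 1 (0.0204), as well as in limma voom on recovered reads (1.25, adjusted p = 0.0377). The effect in cumulus cells minus that in MGCs was 1.23 (SE 0.365, limma adjusted p = 0.0791), and 0.0417 with the library number as a block.

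Wnt5a (chromosome 14, 28504750 to 28527448), a ligand that mostly acts without β-catenin, was low throughout. It was at 0.938, 0.807 and 0.864 FPKM in WT against 0.452, 0.362 and 0.926 in Sphk1/2gc−/− MGCs, where library 3 lay within the WT range (log2 fold change −0.26, SE 0.183, limma adjusted p = 0.721). Without that library it was −0.41 (SE 0.131, limma adjusted p = 0.178). Cumulus cells had 12, 1 and 7 reads in WT and 1, 5 and 0 in Sphk1/2gc−/−, too few for a test. Exons of Wnt5a overlap those of Gm2670 in the annotation, and reads of the 2 genes cannot be told apart there.

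The share of each ligand in the summed FPKM of the 19 Wnt genes sets these levels side by side. Wnt10b made up 12.6%, 9.15% and 16.6% of that sum in WT MGCs and 0.462%, 0.440% and 0.299% in Sphk1/2gc−/− MGCs. The share of Wnt4 was 34.1% to 35.3% in WT and 27.6% to 32.4% in Sphk1/2gc−/−. Wnt11 was at 17.8% to 31.4% in WT and at 47.6%, 40.1% and 11.1% in Sphk1/2gc−/−, above Wnt4 in Sphk1/2gc−/− libraries 1 and 2 and below it in the other 4 libraries.

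Sfrp4 (chromosome 13, 19623104 to 19632994) was by far the most abundant member per exon length. MGCs of WT mice had 512, 418 and 353 FPKM, and those of Sphk1/2gc−/− mice 236, 217 and 41.8. Every Sphk1/2gc−/− library was below every WT library, with library 3 again the lowest, and the mean was 428 ± 79.7 against 165 ± 107 FPKM (SD, n = 3). The log2 difference was −1.70 (SE 0.635) over 6 libraries, −0.90 (SE 0.172) without Sphk1/2gc−/− library 3 and −1.03 (SE 0.116) over libraries 1 and 2 of each genotype, so 1 library set much of its size. In cumulus cells Sfrp4 was at 27.9, 13.1 and 23.8 FPKM in WT and at 18.7, 11.9 and 16.8 in the libraries labelled Sphk1/2gc−/−. These ranges overlapped and the log2 fold change of −0.38 (SE 0.286) did not pass (limma adjusted p = 0.358).

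Sfrp1 (chromosome 8, 23411502 to 23449632) and Sfrp2 (chromosome 3, 83766321 to 83774316) did not share the lower level of Sfrp4 in MGCs. Sfrp1 was at 4.02, 3.94 and 5.34 FPKM in WT and at 6.98, 6.50 and 4.83 in Sphk1/2gc−/− MGCs. Library 3 of Sphk1/2gc−/− fell within the WT range, and the log2 fold change was 0.38 (SE 0.187, limma adjusted p = 0.593). Without that library Sfrp1 did not pass either (0.52, SE 0.144, limma adjusted p = 0.144). Of the fits run, it passed on p only when WT library 3 was left out as well (0.63, SE 0.0851, limma adjusted p = 0.0175). Sfrp2 was at 1.55, 1.77 and 1.27 FPKM in WT and at 1.75, 1.01 and 1.18 in Sphk1/2gc−/− MGCs, with ranges that overlapped (log2 fold change −0.13, SE 0.186, limma adjusted p = 0.875, and −0.0979 without Sphk1/2gc−/− library 3), and its exons overlap those of Gm26771. In cumulus cells Sfrp1 had 0.216 to 0.568 FPKM in WT and 0.219 to 0.799 in Sphk1/2gc−/− (log2 fold change 0.18, SE 0.190, limma adjusted p = 0.514). Sfrp2 had 12 reads over the 6 cumulus libraries.

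**Figure D2:**
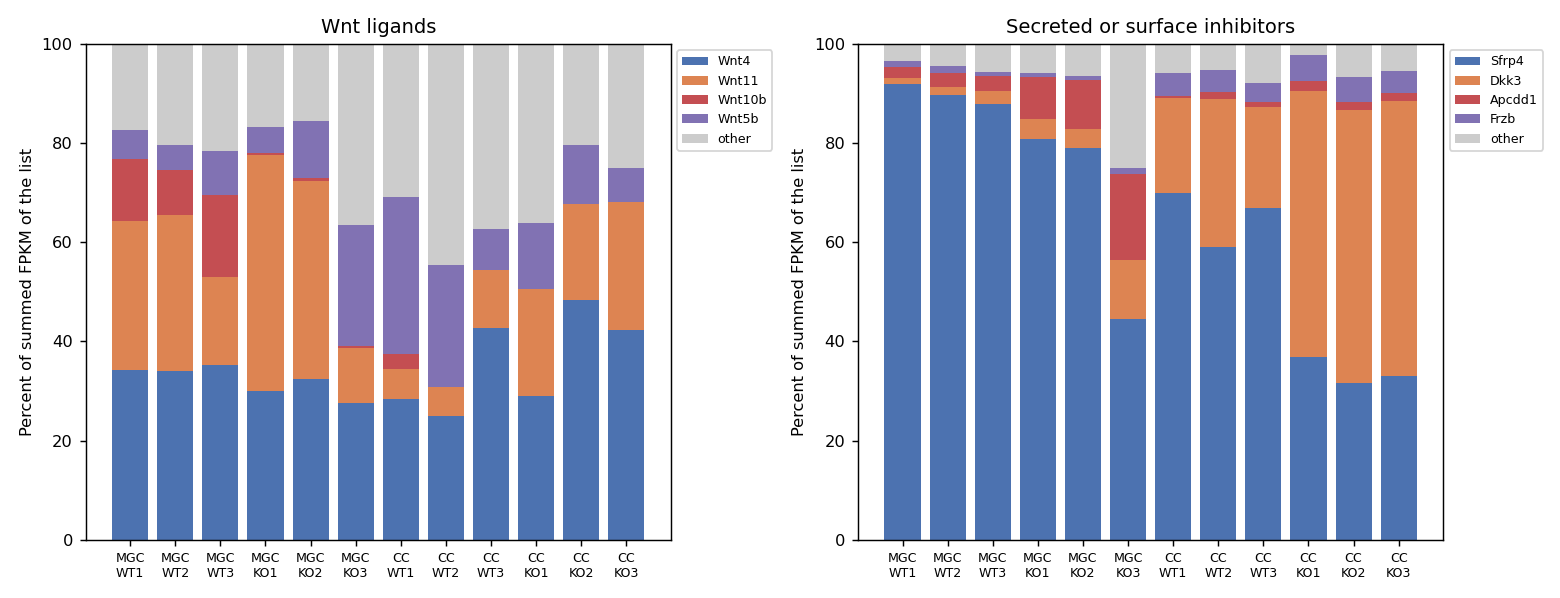
Percent of the summed FPKM of the 19 Wnt ligand genes (left) and of the 19 inhibitor genes (right) that came from single genes, in each library of MGCs and cumulus cells (CC) of WT and Sphk1/2gc−/− (KO) mice. Wnt10b all but disappears from KO MGCs, and in cumulus cells Dkk3 takes a larger share than Sfrp4 in all 3 KO libraries.

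Sfrp4 also set the make-up of the inhibitors. Of the summed FPKM of 19 secreted or surface inhibitors, it was 88.0% to 91.9% in WT MGCs and 80.9%, 79.0% and 44.4% in the Sphk1/2gc−/− MGC libraries 1 to 3. In cumulus cells its share was 59.1% to 70.0% in WT and 31.7% to 36.8% in Sphk1/2gc−/−. There Dkk3, a member of the Dickkopf family, went from 19.0% to 29.7% of the sum in WT to 53.8% to 55.4% in Sphk1/2gc−/−. The sum itself was 22.1 to 39.9 FPKM in WT and 37.6 to 50.9 FPKM in Sphk1/2gc−/− cumulus cells. Of this sum, Dkk3 alone was 6.57 to 7.58 FPKM in WT and 20.7 to 28.2 in Sphk1/2gc−/−, so no rise of the inhibitors as a group is read from it. Whether Dkk3 inhibits Wnt in these cells was not tested.

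Lgr5 (chromosome 10, 115450311 to 115587780), an R-spondin receptor, was 1 of 8 members compared between the cell types and the one whose genotype effect passed the test of that difference. In MGCs it was at 1.05, 0.842 and 0.572 FPKM in WT and at 0.287, 0.213 and 0.108 in Sphk1/2gc−/−, from 177, 145 and 99 reads against 50, 37 and 20. The genotypes did not overlap and the mean of Sphk1/2gc−/− was 24.7% of WT, yet over all genes the test was not passed (log2 fold change −0.59, SE 0.168, limma adjusted p = 0.349, and −0.53 with 0.172 without Sphk1/2gc−/− library 3). In cumulus cells Lgr5 was at 0.0787, 0.0542 and 0.133 FPKM in WT and at 0.305, 0.459 and 0.274 in the libraries labelled Sphk1/2gc−/−, from 13, 10 and 24 reads against 59, 93 and 54. All 3 libraries so labelled were higher than the WT ones. This level was below the limit of 0.5 FPKM for testing, and limma voom on recovered reads of genes with 10 reads or more, chosen after the values were seen, gave a log2 fold change of 2.02 (SE 0.463, adjusted p = 0.00744).

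The difference of the effects of Lgr5, cumulus cells minus MGCs, was 0.90 on log2(FPKM + 1) (SE 0.178, limma adjusted p = 0.0230). Lgr5 reached the level for testing only through WT MGCs, where it was highest, so the filter favoured a gene lower in Sphk1/2gc−/− MGCs; with no filter the adjusted p was 0.0274. It was past the threshold with the block (0.0262) and with MGC libraries 1 and 2 only (0.00313), but not without replicate 1 (0.15) or replicate 2 (0.446) of all groups, fits in which 0 of all genes passed. Of all 15869 genes compared, 3.93% passed that test, so 1 of 8 members is a small count. Genes that were lower without overlap in MGCs and higher without overlap in cumulus cells made up 1.12% of the same genes.

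Neither Frizzled receptor passed the test over all libraries. Fzd1 (chromosome 5, 4753839 to 4758035) was at 11.0, 10.4 and 8.68 FPKM in WT and at 14.2, 14.98 and 6.47 in Sphk1/2gc−/− MGCs. Libraries 1 and 2 of Sphk1/2gc−/− lay above WT and library 3 below it, so that the log2 fold change was 0.15 over 6 libraries (SE 0.301, limma adjusted p = 0.924) and 0.50 without Sphk1/2gc−/− library 3 (SE 0.121, limma adjusted p = 0.114). It passed on p over libraries 1 and 2 of both genotypes (0.41, SE 0.0710, limma adjusted p = 0.0288), and was −0.0081 and −0.0465 without Sphk1/2gc−/− library 1 or 2. Fzd4 (chromosome 7, 89404355 to 89413134), which also binds the ligand norrin, was at 4.21, 4.13 and 6.47 FPKM in WT and at 3.09, 2.93 and 4.94 in Sphk1/2gc−/− MGCs. Library 3 was the highest of each genotype, and the log2 fold change was −0.36 (SE 0.238, limma adjusted p = 0.705). It was −0.18 without WT library 3 (limma adjusted p = 0.830) and −0.55 without Sphk1/2gc−/− library 3 (0.203). In cumulus cells Fzd1 had 0.543 to 1.30 FPKM in WT and 0.911 to 1.96 in Sphk1/2gc−/− (log2 fold change 0.43, SE 0.217, limma adjusted p = 0.186), and Fzd4 had 0.370 to 0.546 against 0.178 to 0.384, below the level for testing.

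Axin2 had overlapping levels in both genotypes of MGCs. It (chromosome 11, 108920349 to 108950783) was at 1.32, 1.59 and 1.14 FPKM in WT and at 1.52, 1.48 and 0.995 in Sphk1/2gc−/−. The ranges overlapped and the log2 fold change was −0.02 (SE 0.175, limma adjusted p = 0.989), or 0.0931 without Sphk1/2gc−/− library 3. Its exons overlap those of Gm11670. In cumulus cells Axin2 had 1, 1 and 0 reads in WT and 0 in each Sphk1/2gc−/− library, where 3 reads would be 0.0276 to 0.0338 FPKM.

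**Figure D3:**
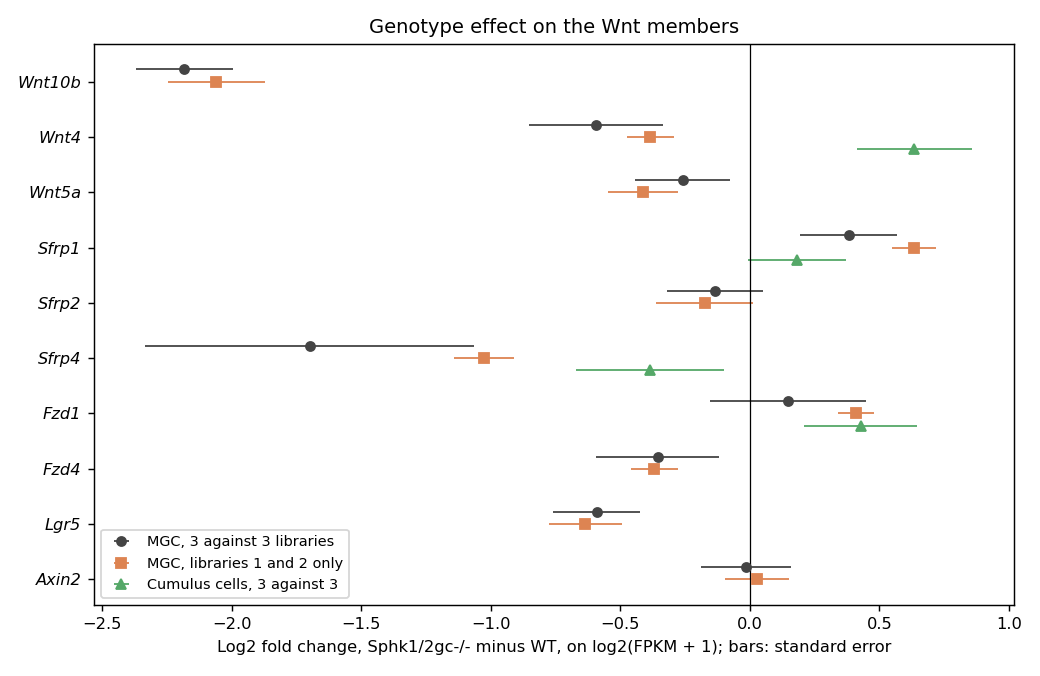
Log2 fold change of Sphk1/2gc−/− against WT with its standard error (horizontal) for each member tested (vertical), in MGCs over 6 libraries, in MGCs over libraries 1 and 2 only and in cumulus cells. Wnt10b and Sfrp4 in MGCs are shown as a description because they were picked on this contrast, and for Sfrp4 and Fzd1 the points of all 6 and of 4 libraries lie well apart.

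Of the 8 members that were not picked on the MGC contrast, 0 passed the threshold there by limma, and 1, Lgr5, had an unadjusted p below 0.05. Of all 15279 genes tested in MGCs, 0.0393% were called and 9.2% had such an unadjusted p. Lgr5 and Wnt4 were lower without overlap, and 0 of the 8 were higher without overlap, against 9.17% and 7.72% of all genes. Lgr5 reached the level for testing only through WT MGCs, where it was higher. The filter thus favoured its place in these counts, and nothing is read from them. Without Sphk1/2gc−/− library 3, 0 of the 8 passed, and over libraries 1 and 2 of both genotypes 3 passed on p, namely Sfrp1, Fzd1 and Lgr5. That last fit called 477 genes, against 6 over all libraries. Its share of all genes passing on p is not given here, so nothing is read from the count of 3. In cumulus cells 4 of the 10 members reached the level for testing and 0 passed by limma, with 1, Wnt4, at an unadjusted p below 0.05 and 2 by limma voom of genes with 10 reads or more. There 8.04% of 12205 genes were called by limma and 38.2% had an unadjusted p below 0.05. The fit by limma voom of genes with 10 reads or more called 1868 genes, and its share passing on p is not given here. Lgr5 alone of the 10 had no overlap, being higher, and 0 were lower without overlap, against 18.2% and 24.1% of all genes tested. However, 6 of the 10, Lgr5 among them, were below the level for testing, and the shares cover only genes that reached it.

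Markers of some other cell types moved with the genotype in MGCs. The 10 leukocyte markers summed to 154 to 239 FPKM in WT and to 13.6 to 56.5 in Sphk1/2gc−/− MGCs, mostly from the neutrophil genes S100a8, S100a9 and Retnlg, while the pan-leukocyte gene Ptprc was at 0.580 to 1.22 and 0.0544 to 1.51 FPKM. Of the 7 leukocyte markers tested, 3 had a fold change above 0 and 4 below, with a median of −0.00897 on the log2 scale. The 6 endothelial markers summed to 14.4 to 17.6 FPKM in WT and 8.74 to 10.9 in Sphk1/2gc−/−, without overlap, and all 6 had a fold change below 0. The sums of the theca and stroma markers overlapped, at 179 to 340 and 153 to 203 FPKM, but 8 of the 9 tested had a fold change below 0. Of these Pdgfrb went from 1.91 to 2.43 FPKM in WT to 0.70 to 0.959 in Sphk1/2gc−/−, and Acta2 from 49.3 to 54.7 FPKM to 27.5 to 37.8, while Lum was lower without overlap too. The ovarian surface epithelium markers overlapped in sum, at 40.8 to 66.5 and 40.8 to 55.4 FPKM, with 6 of 8 fold changes below 0 and with Upk3b, Upk1b and Krt7 lower without overlap. Of these 4 lists, 0 genes were called, against 0.0393% of all genes tested in MGCs, and 9.17% of all genes were lower without overlap. The part of these cells in the values of Wnt10b, Sfrp4, Wnt4 and Lgr5 was not tested.

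Marker genes moved more widely in cumulus cells. Among libraries labelled Sphk1/2gc−/−, 5 of the 10 granulosa markers were called lower, whereas Ptx3 and Tnfaip6, 2 of the 5 markers of cumulus expansion, were called higher. Cyp17a1 and Lum, 2 of the 5 theca and stroma markers tested, were called lower, as was S100a9, 1 of 3 leukocyte markers tested. Of all genes tested in cumulus cells, 8.04% were called in either direction. The surface epithelium markers summed to 12.2 to 16.5 FPKM in WT and to 19.8 to 31.3 in the libraries labelled Sphk1/2gc−/−, with 0 of 3 called, and the oocyte markers to 4.11 to 8.17 and 2.41 to 2.73 FPKM, with 0 of 4 called. The part of these cells in the higher level of Lgr5 and of the pathway genes given further on was not tested.

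The mean level of every member was higher in WT MGCs than in WT cumulus cells. For the 7 whose WT cumulus mean was above the level of 3 reads, the ratio of the means ran from 9.25 for Lgr5 to 19.8 for Sfrp4, and from 4.90 to 10.5 after libraries were rescaled to a common median. No ratio is given for Wnt10b, Axin2 and Sfrp2, which had 2, 2 and 6 reads in the 3 WT cumulus libraries. For 8 of the 10, all but Wnt10b and Lgr5, every MGC library lay above every cumulus library, a pattern held by 44.1% of 15869 genes. After the rescaling it was 6, as Wnt4 and Sfrp4 then overlapped. Wnt5a, Sfrp2, Fzd4 and Axin2 had means below 0.5 FPKM in both cumulus groups. They reached the level for this comparison only through MGCs, where they were higher, so nothing is read from the count. As nothing states that the tables were scaled together, no test was made.

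The genes most like Wnt10b, Sfrp4 and Lgr5 over the 6 MGC libraries were sought among 7133 or 7134 genes of at least 5 FPKM, by Pearson's r of log2(FPKM + 1), as a description. Wnt10b was closest to Gm2a (r = 0.996), the activator of ganglioside breakdown, which went from 55.8 to 12.5 FPKM, and then to Slc25a36 and Bcam. Sfrp4 was closest to Ythdc1 (r = 0.999) and to Lgr4 (r = 0.998), another R-spondin receptor, at 26.3 FPKM in WT and 16.3 in Sphk1/2gc−/−. Lgr5 was closest to Golim4 (r = 0.997), Fads3 and Gm7862. These r rest on 6 libraries that share their genotypes and the library that stands apart.

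The wider pathway was read from lists of 93 genes, of which 64 beside Wnt10b and Sfrp4 were tested in MGCs. By limma 0 of these 64 were called there, and 28 had a fold change above 0 and 36 below (median −0.06, against −0.0034 of all genes). Of the 64, Fzd9, Lgr5 and Notum, or 3, reached the level for testing only through WT, where they were higher. β-catenin itself (Ctnnb1) was at 93.9 to 97.6 FPKM in WT and 92.9 to 99.2 in Sphk1/2gc−/−. Csnk1a1, a kinase that marks β-catenin for destruction, was at 46.7 to 57.5 and 38.7 to 55.7 FPKM (log2 fold change −0.14, SE 0.175, limma adjusted p = 0.849). Wls, which carries Wnts to the cell surface, was at 11.7, 11.5 and 11.6 FPKM in WT and at 9.33, 9.37 and 9.41 in Sphk1/2gc−/−. These ranges were narrow and apart, but the log2 fold change of −0.28 did not pass (SE 0.114, limma adjusted p = 0.514). Porcn, the enzyme that attaches the lipid to Wnts, had overlapping levels, at 1.28 to 1.95 FPKM in WT and 0.826 to 2.88 in Sphk1/2gc−/− MGCs. Apcdd1, a membrane inhibitor of Wnt, was at 12.0 to 13.8 FPKM in WT and at 16.2 to 27.3 in Sphk1/2gc−/− (log2 fold change 0.75, SE 0.203, limma adjusted p = 0.326), and passed on p without Sphk1/2gc−/− library 3 (0.97, limma adjusted p = 0.0151). The co-receptors Lrp6 and Ptk7 had fold changes of 0.04 and 0.06 on the log2 scale.

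**Figure D4:**
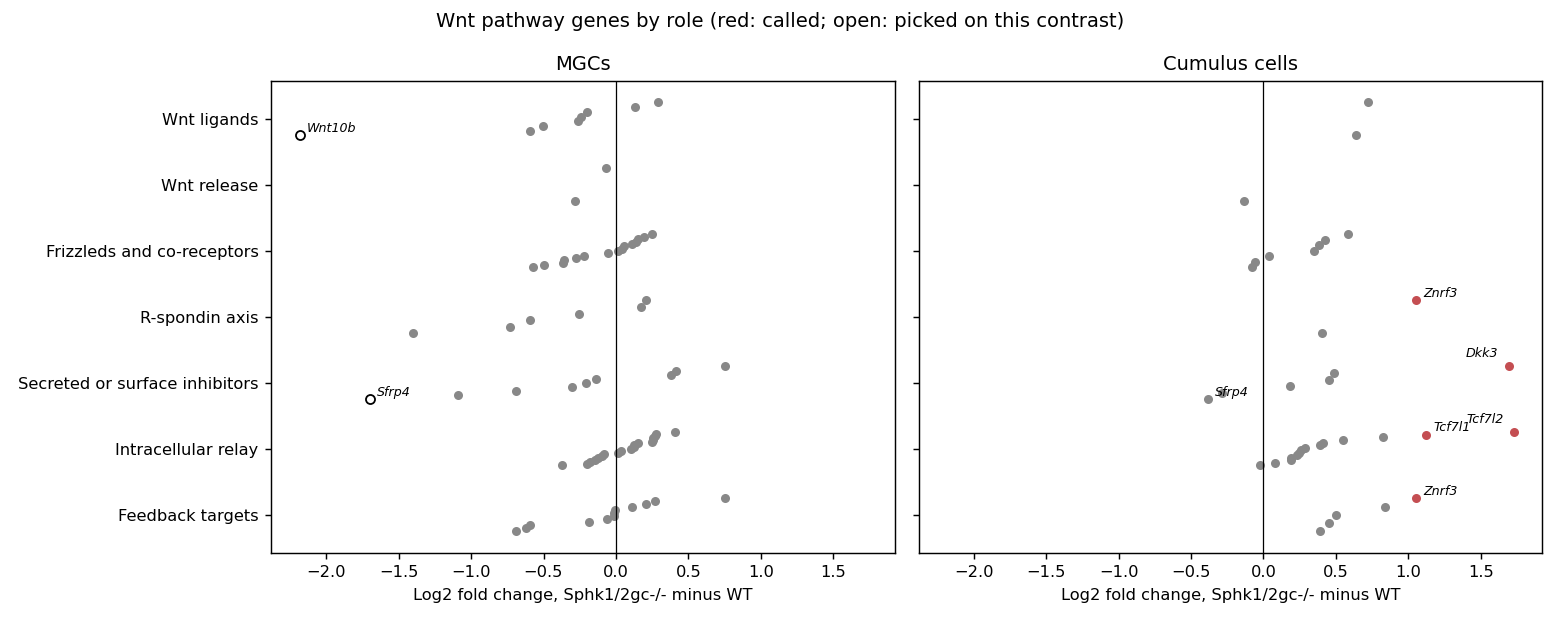
Log2 fold change of Sphk1/2gc−/− against WT (horizontal) for the genes tested in each list of Wnt pathway roles (vertical), in MGCs (left) and cumulus cells (right), 1 point per gene, where a gene in 2 lists is drawn in both. Open points are Wnt10b and Sfrp4 in MGCs, which were picked on this contrast and are not marked for a call, and the red points, which passed an adjusted p of 0.05 with a 2-fold change among the other genes, are all in cumulus cells and to the right of 0.

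In cumulus cells, 34 genes of the lists were tested, and the 4 that were called were all higher in the libraries labelled Sphk1/2gc−/−. That is 11.8% of 34, against 8.04% of all genes in either direction. The share of all genes called higher alone is not given here. Tcf7l2, a TCF factor that binds β-catenin, rose from 4.41, 4.28 and 4.67 FPKM to 12.3, 20.4 and 19.9 (log2 fold change 1.73, SE 0.204, limma adjusted p = 0.00172). Dkk3 rose from 7.58, 6.57 and 7.19 FPKM to 27.4, 20.7 and 28.2 (1.69, SE 0.165, limma adjusted p = 0.00086). Both genotypes lay well apart for these genes. Znrf3, the ligase that removes Frizzleds and a feedback target, rose from 10.7 to 23.3 FPKM on average (1.05, SE 0.157, limma adjusted p = 0.00399). Tcf7l1, a TCF factor that mostly represses, rose from 0.680 to 1.67 FPKM in WT to 2.14 to 4.18 (1.12, SE 0.254, limma adjusted p = 0.0174). Tcf7l1 lost its call when WT library 1 or 2 or Sphk1/2gc−/− library 2 or 3 was left out (limma adjusted p of 0.0598 to 0.0709), and also with no filter on low values (0.0761). Dkk3 and Tcf7l2 kept their call without any 1 library. Znrf3 stayed at an adjusted p of 0.05 or less in those fits, but its log2 fold change was 0.95 without WT library 1, which is under 2-fold.

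A further 4 genes passed on p with a change of less than 2-fold, Wnt11, Ror1, Csnk1e and Myc, all of them higher in the libraries labelled Sphk1/2gc−/−. All 4 missed the limit with no filter on low values (limma adjusted p of 0.0653 to 0.122). Of the 6 fits with 1 library left out, Wnt11 missed it in 3, Csnk1e in 4, and Ror1 and Myc in 5 each. With these 4 genes, 23.5% of the 34 passed on p, against 22.3% of all genes in either direction. The share is near the background when direction is set aside. All genes of the lists that passed were higher, whereas by that rule 9.66% of all genes were higher and 12.7% lower. Without regard to p, 17 of the 34 were higher without overlap and 0 lower, against 18.2% and 24.1% of all genes, and the median log2 fold change of the 34 was 0.39, against −0.06. However, 5 of the 34 (Wnt11, Apcdd1, Dvl3, Bcl9l and Sfrp1) reached the level for testing only through the libraries labelled Sphk1/2gc−/−, among them 4 of the 17, and no direction of the group is read from these counts.

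None of the following genes passed the test in cumulus cells. Csnk1a1 was at 38.6 to 44.4 FPKM in WT and at 43.8 to 59.2 in the cumulus libraries labelled Sphk1/2gc−/− (log2 fold change 0.26, SE 0.169, limma adjusted p = 0.302). Ryk, a Wnt receptor that is no Frizzled, was at 8.40 to 10.3 and 8.16 to 10.5 FPKM (0.0378, SE 0.159, limma adjusted p = 0.887). Porcn was below the level for testing there. Tcf7, the TCF factor at the highest level in cumulus cells, was at 64.9 to 75.6 FPKM in WT and at 72.2 to 114 in Sphk1/2gc−/− (0.39, SE 0.189, limma adjusted p = 0.169). Lgr4 was at 1.76 to 2.00 FPKM in WT and at 2.17 to 3.34 in Sphk1/2gc−/− (0.40, SE 0.162, limma adjusted p = 0.107), whereas in MGCs it was at 23.2 to 29.3 FPKM in WT and 9.11 to 20.02 in Sphk1/2gc−/− (−0.73, SE 0.296, limma adjusted p = 0.520, and −0.38 with 0.169 without Sphk1/2gc−/− library 3). Lgr6, another R-spondin receptor, was below the level for testing in cumulus cells and went the other way from Lgr5 and Lgr4. It was at 0.349 to 0.417 FPKM in WT and 0.0295 to 0.0837 in the libraries labelled Sphk1/2gc−/−, without overlap. In MGCs Lgr6 was at 0.892 to 5.95 and 0.345 to 1.17 FPKM, with overlap (−1.40, SE 0.497, limma adjusted p = 0.475).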

How the data were processed

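NEBNext Ultra libraries were made from the RNA of both cell types and genotypes. The FPKM values that the authors deposited, in 1 table per cell type, were made with HISAT2 on GRCm38 per the submitters' processing notes; the counting tool, annotation and settings are not given in the sources used here. Gene names and exon lengths came from GENCODE M21, which lacks 64 (MGCs) and 66 (cumulus cells) listed genes. FPKM times exon length gave whole reads for 90.5% to 92.0% of values (tolerance 0.02 reads), and for Wnt10b only with an exon length of 2334 bases.

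The test of genotype was limma 3.58.1 (R 4.3.3, intensity trend) on log2(FPKM + 1), run per cell type over genes whose mean reached 0.5 FPKM in WT or Sphk1/2gc−/−. Called genes had a Benjamini-Hochberg adjusted p at or under 0.05 with at least a 2-fold change. The difference between cell types was an interaction over 12 libraries. SE is that of limma. The code was checked on simulated data. The members and lists were chosen with earlier results of these data known. Named from the lists were called genes and the 2 genes of each list with the highest mean per cell type, and others (Frzb, Ror1, Csnk1e, Fzd9, Notum, Dvl3, Bcl9l, Lgr6 and single markers) after their values were seen. After removal of group means, MGC libraries of the same number correlated at 0.220, 0.158 and 0.224, past the limit of 0.1 for a pairing, and cumulus libraries at −0.148, −0.0511 and 0.115. The number was therefore used as a block in an alternative fit. Other alternatives were another pseudocount, no filter, no trend, a median shift, limma voom on recovered reads, and leaving out libraries. Of the columns of the tables, 0 were left unused.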

Additional observations from a re-analysis of the deposited data

Results flagged for a closer look

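Of 64 pathway genes other than Wnt10b and Sfrp4, 4 (6.25%) had genotype effects that differed between cumulus cells and MGCs in the interaction test, against 3.93% of all genes. They were Lgr5, with a difference of 0.90 (SE 0.178, limma adjusted p = 0.0230), Dkk3 with 1.28 (SE 0.232, limma adjusted p = 0.0167), Frzb with 1.58 (SE 0.337, limma adjusted p = 0.0306) and Tcf7l2 with 2.11 (SE 0.358, limma adjusted p = 0.0141). All 4 were higher in the cumulus contrast than in that of MGCs. Dkk3 was at 6.64 to 10.2 FPKM in WT and 10.5 to 11.4 in Sphk1/2gc−/− MGCs, so that the Sphk1/2gc−/− libraries were above those of WT in both cell types. Frzb, a secreted inhibitor of the Sfrp family, was at 3.76 to 6.41 FPKM in WT and 1.11 to 2.59 in Sphk1/2gc−/− MGCs, and at 0.962 to 1.82 against 1.95 to 2.67 in cumulus cells. Lgr5 reached the level for testing only through WT MGCs, where it was highest. The filter thus favoured its place among the 4, and nothing is read from their share. Without replicate 1 or 2 the limma adjusted p of Lgr5 was 0.15 and 0.446. In those fits the limma adjusted p of Dkk3, Frzb and Tcf7l2 was 0.109 to 0.406, with differences of 1.36 to 2.33. With no filter on low values Frzb missed the limit (limma adjusted p = 0.0582), whereas Dkk3 and Tcf7l2 stayed under it (limma adjusted p = 0.0301 for each).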

How the results depend on the processing

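In MGCs 6 genes were called. The count was 1 without the filter, 1 after the median shift, 3 with the library number as a replicate block, 0 by limma voom on recovered reads with either minimum, 477 over libraries 1 and 2 only and 0 to 170 with 1 library left out, the highest without Sphk1/2gc−/− library 3. Of the 8 members, 0 passed in each of these but the fit of libraries 1 and 2, with 3. In cumulus cells 981 genes were called, and 1674 with a pseudocount of 0.1, 1728 by limma voom and 1868 by limma voom of genes with 10 reads or more. Members that passed there went from 0 to 1 by limma voom, 2 by that of genes with 10 reads or more and 0 to 1 with 1 library left out. The difference between cell types passed for 624 genes, and for 327 without the filter, 2474 with MGC libraries 1 and 2 only and 0 to 1579 without 1 replicate. Members that passed there were 1, 2 with the replicate block and 0 to 1 without 1 replicate. The block took Myc (0.0640) and Ror1 (0.0704) over the limit in cumulus cells.

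Some directions turned. With 1 library left out, the MGC fold change ran from −0.0807 to 0.0931 for Axin2 and from −0.0465 to 0.50 for Fzd1, and it was 0.0280 for Axin2 over libraries 1 and 2. Sfrp2 in cumulus cells was 0.42 by limma voom of genes with 10 reads or more. The difference between cell types was −0.11 for Fzd4 and −0.0677 for Axin2 with a pseudocount of 0.1, and −0.0382 for Axin2 with MGC libraries 1 and 2 only. Without 1 replicate it ran from −0.53 to 0.22 for Sfrp1, from −0.0526 to 0.22 for Sfrp2, from −0.16 to 0.72 for Fzd1 and from −0.0433 to 0.0757 for Axin2. The causes were not tested. Limma voom of genes with 10 reads or more and the difference fitted with MGC libraries 1 and 2 were chosen after seeing the data. With 3 libraries a group, 1 of them apart, and at most 93 reads of Lgr5 and 2 of Wnt10b in a cumulus library, number and depth limit what could be detected.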
